A study of Rattus norvegicus with 19 samples.

Results

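The genes described here encode the machinery that moves membrane between the compartments of a cell: the Rab GTPases with a few of their partners, the ARF GTPases, the subunits of the COPI coat, the vacuolar protein sorting (Vps) proteins and the sorting nexins. They were chosen by name, as annotated probes whose symbol begins with Rab, Vps, Snx, Arf or Cop in the numbered or lettered form of these families, which gave 109 probes for 105 genes. A gene was kept when its detection p, the array software's test of a signal against negative control beads, was under 0.05 on every array of at least 1 treatment group. This left 86 of the 7345 genes with a named and detected probe, and the gene with several probes was read from that with the highest mean signal. Detection held on every array of all 3 groups for 79 members, and Rab11fip2, Rab25, Rab39a, Rab40c, Rab4b, Snx33 and Vps37c entered through 1 or 2 groups only. The 86 members are 34 of 45 Rab GTPases on the array, 3 of 5 Rab effectors or regulators, 6 of 6 ARF GTPases, 4 of 5 COPI subunits, 23 of 24 Vps proteins and 16 of 20 sorting nexins. The 19 genes that did not pass were Rab7b, Rab9b, Rab12, Rab17, Rab19, Rab22a, Rab23, Rab31, Rab33b, Rab3c, Rab43, Rab11fip4, Rab3il1, Copz2, Vps13b, Snx8, Snx20, Snx22 and Snx30.

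Rab and ARF proteins are molecular switches: in the GTP-bound state each sits on a particular membrane and recruits the coats, motors and tethers that form a vesicle, carry it and dock it. COPI coats vesicles at the Golgi, Vps proteins build the complexes that sort and fuse endosomes and lysosomes, and sorting nexins bind endosomal lipids through their PX domain. Retinal cells depend on this traffic, since photoreceptors send rhodopsin to their outer segment through Rab11, Rab8 and Arf4, ribbon and conventional synapses release vesicles that carry Rab3, and the pigment epithelium degrades shed outer segments in its lysosomes. Vps72 falls under the naming rule but is a subunit of a chromatin remodelling complex.

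Retinas came from male Sprague-Dawley rats, an albino outbred strain, 3 months after a single intraperitoneal injection. Control rats (n = 7) received vehicle alone and are called non-diabetic. STZ rats (n = 5), called diabetic, received streptozotocin at 65 mg/kg, a toxin taken up by pancreatic beta cells that leaves the animal short of insulin. STZ + insulin rats (n = 7), called insulin-treated diabetic, received the same injection and, from week 6, subcutaneous insulin pellets of 26 mg, so that they had been diabetic for weeks before treatment began. Neither injected group can separate streptozotocin itself from the diabetes that it causes, and the dissected tissue was the whole retina with its pigment epithelium. In such bulk tissue fewer cells of a type and less RNA per cell cannot be told apart.

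RNA of each rat was read on 1 Illumina RatRef-12 array. Signals are given on the log2 scale after background subtraction and scaling of each array to a common mean, with values under 10 set to 10. Of 22517 probes, 10718 passed the detection rule and were tested. The arrays lay on 2 BeadChips, the slides that carry them, with 3 Control, 2 STZ and 4 STZ + insulin arrays on BeadChip 1 and 4, 3 and 3 on BeadChip 2. Photoreceptor markers had a mean signal over 17 of 22 genes between 11.1 and 11.5 on every array. Of these 17, 2 were higher in insulin-treated than in diabetic rats. Microglia and leukocyte markers (7 of 15 detected) had a mean of 6.78 in Control (6.37 to 6.95), 7.23 in STZ (6.49 to 8.35) and 6.77 in STZ + insulin arrays (6.40 to 7.47), with a difference between STZ and Control of 1.03 on BeadChip 1 and 0.065 on BeadChip 2, and 1 of the 7 was lower with insulin. Muller glia and astrocyte markers (7 of 11) had means of 10.84, 10.96 and 10.67 (10.67 to 11.04, 10.78 to 11.12 and 10.49 to 10.84), and 1 of the 7 was lower with insulin. Inner retinal neuron markers (15 of 18) had means of 8.84, 8.70 and 8.81 (8.74 to 8.93, 8.60 to 8.75 and 8.69 to 8.92), with no call. Their mean difference between STZ and Control was -0.22 on BeadChip 1 and -0.088 on BeadChip 2. Between STZ + insulin and STZ it was 0.11 and 0.13. The part of all these cells in the members' differences was not tested. Lens markers varied more: the mean signal over the 11 of 20 lens genes detected ranged from 6.83 to 11.4 in Control, from 8.62 to 12.5 in STZ and from 6.29 to 9.39 in STZ + insulin arrays, although the lens was removed at dissection. None of the 11 lens genes passed the test in diabetic against control rats, in which the mean lens difference was 3.29 on BeadChip 1 and -0.096 on BeadChip 2, and 9 of 11 were lower in insulin-treated than in diabetic rats (mean difference -3.15).

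Few trafficking genes passed the test between diabetic and control retinas. Snx15 fell and Rab3d rose, and none of the other members passed an adjusted p of 0.05 (limma over all 10718 probes, all 3 groups in 1 model, Benjamini-Hochberg). The 2 members called are 2.33% of 86, against 2.79% of all tested probes (0.886% higher and 1.9% lower). At an unadjusted p under 0.05 there were 19 members, 3 higher and 16 lower, which is 22.1% against 20.8% of all probes (5.36% higher and 15.5% lower). The median log2 difference of the members was -0.087 and that of all probes -0.067, beside a median standard error of 0.10 per member (0.053 to 0.34), and 60 of 86 members (69.8%) lay below 0 beside 64.7% of all probes. Of all probes called, 31.8% were higher, a share that was 57.2% after quantile normalization and 56.3% after neqc. With either of these 4 members passed, Rab3d, Rab25 and Rab26 higher and Snx15 lower, and 325 and 316 of all 10718 probes were called. Rab25 entered the test only through the diabetic group, where it was highest, so the detection rule favoured its rise. The count of members was 0 of 86 without Control replicate 1 or 3, 1 without Control replicate 2, 4, 5 or 7, STZ replicate 2 or 4 or STZ + insulin replicate 1, 2, 5 or 6, and 4 without STZ replicate 3. With the mean lens signal of each array as a covariate 0 members passed and 16 had an unadjusted p under 0.05. That fit called 122 of all 10718 probes.

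Insulin-treated diabetic and diabetic retinas differed in more members. Rab30, Arf2, Snx15 and Vps18 rose with insulin, and Rab3d, Rab25 and Arf3 fell. These 7 are 8.14% of the members, below the 10.4% of all probes called in this comparison (6.49% higher and 3.93% lower), and 20 members had an unadjusted p under 0.05 (23.3%, against 27.1%). Rab25 was tested only because the diabetic group, where it was highest, passed the detection rule, and with a detection p under 0.01 required it was not tested and the other 6 passed. The median difference was 0.066 over the members and 0.060 over all probes. The members' median was 0.018 after quantile normalization, 0.020 after neqc, 0.025 with the lens covariate, -0.0029 within BeadChip 1 and 0.13 within BeadChip 2. Leaving out STZ replicate 2 or STZ + insulin replicate 7 left 3 members, STZ + insulin replicate 5 left 4 and STZ + insulin replicate 6 left 2, whereas 12 passed without STZ replicate 3. With the lens signal as a covariate none of the 86 passed by limma, 8 had an unadjusted p under 0.05, and 2 of the 10718 probes were called. The lens signal itself differed between these groups, so this fit cannot separate lens from treatment. Its errors were also wider, as for Snx15 (0.44, SE 0.14, against 0.43, SE 0.097, without the covariate). Diabetic animals enter both comparisons, which therefore share 5 arrays.

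**Figure D1:**
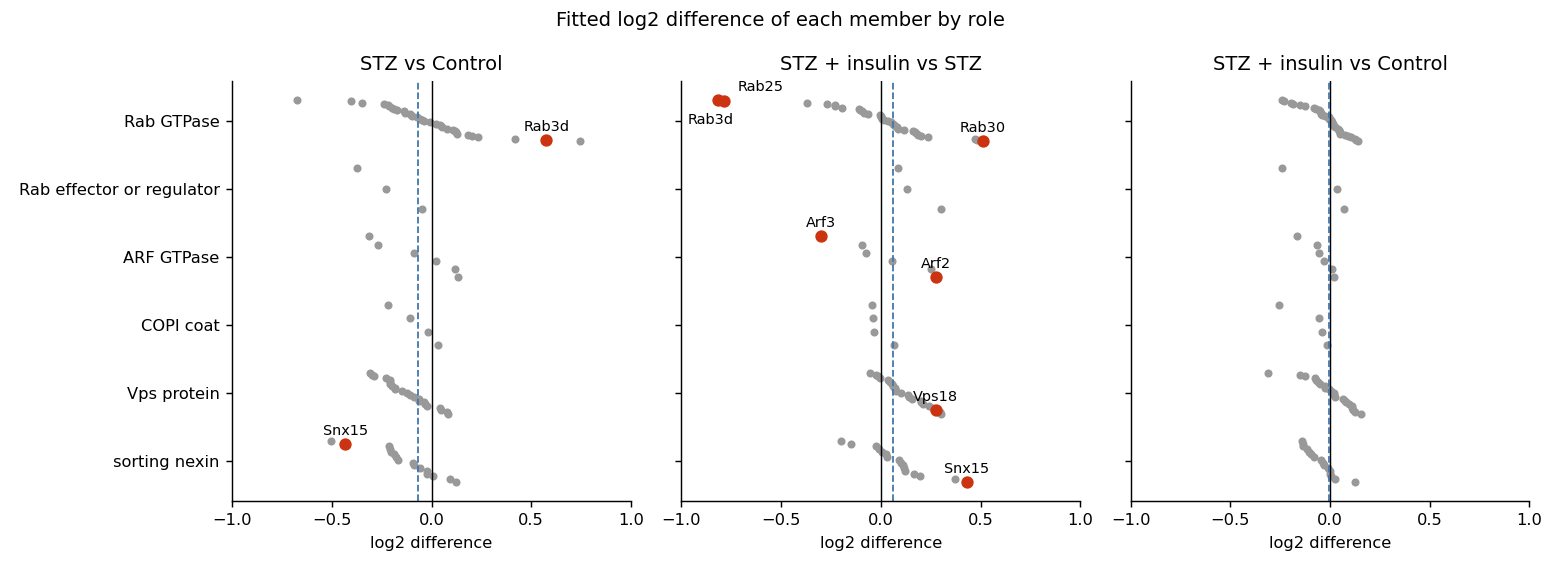
Log2 difference of each of the 86 members (points, ordered by value within each role) in the 3 comparisons. Red points passed an adjusted p of 0.05, and the dashed line marks the median of all tested probes (-0.067, 0.060 and -0.0046). Most points lie within 0.5 of 0, and some uncalled points, such as Rab39a (-0.68 in STZ against Control), lie as far out as the called ones.

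Among the Rab GTPases, Rab3d carried the largest called difference. It belongs to the Rab3 subfamily of regulated secretion and is best known from the granules of exocrine cells. Control arrays read from 5.92 to 6.86 with a median of 6.61, the 5 STZ arrays read 7.15, 7.54, 6.64, 7.13 and 6.98, and STZ + insulin arrays read from 6.15 to 6.49 with a median of 6.23. All 5 diabetic rats lay above the Control mean, with STZ replicate 3 inside the Control range, and all 7 insulin-treated rats lay below every diabetic rat. Rab3d rose by 0.58 in diabetic rats (SE 0.15, 1.49-fold, limma adjusted p = 0.0444) and fell by 0.82 with insulin (SE 0.15, 1.76-fold, adjusted p = 0.0047). Ranges that do not overlap were found for 3.73% of all probes in the latter comparison. The size was alike on the BeadChips, at 0.69 and 0.49 for diabetic against control rats and at -0.82 and -0.79 for insulin-treated against diabetic rats. With the lens covariate the differences were 0.47 (adjusted p = 0.114) and -0.56 (adjusted p = 0.232). The rise in diabetic rats passed in 5 of 19 fits that each left out 1 array, and the fall with insulin in 19 of 19.

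The stretch of 250 bases before the start of Rab3d is shown because it is the member called in both comparisons with the larger change. It lies at chr8:28725268-28725517 of the build GRCr8 on the minus strand and holds 2 GC boxes (GGGCGG or its complement CCGCCC, in capitals), the sequence bound by Sp1.
Rab3d: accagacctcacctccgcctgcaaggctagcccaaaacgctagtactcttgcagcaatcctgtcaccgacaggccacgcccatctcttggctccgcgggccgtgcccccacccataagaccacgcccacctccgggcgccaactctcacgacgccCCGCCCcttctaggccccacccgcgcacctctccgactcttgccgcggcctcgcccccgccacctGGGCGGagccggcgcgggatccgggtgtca

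No other Rab of secretory vesicles passed the test. Rab3a, the main Rab of synaptic vesicles, read 8.16 ± 0.16 (SD, n = 7) in Control, 8.29 ± 0.32 (n = 5) in STZ and 8.20 ± 0.12 (n = 7) in STZ + insulin retinas, and Rab3b differed by -0.058 between diabetic and control rats. Rab26, a Rab of secretory granules and synaptic vesicles singled out after its values were seen, read 8.91, 9.26, 8.46, 8.43 and 9.11 in the 5 STZ arrays, from 8.30 to 8.63 in Control and from 8.24 to 8.62 in STZ + insulin arrays. STZ replicates 1, 2 and 5 were above every other array and STZ replicates 3 and 4 were within the Control range. Its differences of 0.42 (SE 0.12, adjusted p = 0.0671) and -0.37 (SE 0.12, adjusted p = 0.0604) did not pass, and with quantile or neqc normalization both did. Rab39a, a Rab of late endosomes and phagosomes also picked out for its size, differed by -0.68 between diabetic and control rats with the widest error of all members (SE 0.34, adjusted p = 0.267), and it was detected on 3 of 5 diabetic arrays. Rab27a, which tethers melanosomes and secretory granules, read 5.31 ± 0.30, 5.10 ± 0.52 and 5.18 ± 0.28 in the same order of groups.

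Rab25, the epithelial member of the Rab11 subfamily of recycling endosomes, was a dim probe. It was detected on 5 of 7 Control, 5 of 5 STZ and 4 of 7 STZ + insulin arrays, so it entered the list only through the diabetic group, in which it was highest. Control arrays read from 3.72 to 4.54 (median 4.32), STZ arrays 4.53, 4.85, 4.84, 5.50 and 5.43, and STZ + insulin arrays from 3.56 to 5.01 (median 4.30). STZ replicates 4 and 5, both on BeadChip 1, were the highest, and the diabetic range overlapped each of the other groups. Rab25 fell by 0.79 with insulin (SE 0.22, 1.73-fold, adjusted p = 0.0296), and its difference between diabetic and control rats was 0.75 (adjusted p = 0.0678), 1.08 within BeadChip 1 and 0.53 within BeadChip 2. With the BeadChip as a block that difference passed (0.76, adjusted p = 0.0349). It was 0.26 after quantile normalization and 0.43 after neqc, so its size depended on the processing. The fall with insulin passed in 14 of 19 fits with 1 array left out and could not be measured with values under 50 set to 50, which put every array at that value. Rab11a, the widely expressed member of this subfamily, read 9.86 ± 0.12, 9.82 ± 0.13 and 9.71 ± 0.18 in Control, STZ and STZ + insulin retinas, and Rab11b differed by 0.12 and -0.10 in the comparisons that share the diabetic rats.

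Rab30, a Golgi Rab, had the opposite order of groups. Control arrays read from 8.01 to 8.60 (median 8.35), STZ arrays 7.98, 7.52, 7.87, 7.99 and 8.32, and STZ + insulin arrays from 8.07 to 8.77 (median 8.44). STZ replicate 2 was the lowest array, and STZ replicate 5 reached into the ranges of the other groups. Rab30 rose by 0.51 with insulin (SE 0.14, 1.42-fold, adjusted p = 0.0269), by 0.19 within BeadChip 1 and by 0.79 within BeadChip 2, and its difference of -0.40 between diabetic and control rats did not pass (adjusted p = 0.107). It was the member that passed within BeadChip 2 alone, where the other 85 did not and 355 of all 10718 probes were called. The other 6 Rabs of the endoplasmic reticulum and Golgi, among them Rab1a, Rab2a and Rab18, had no call in any comparison.

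The Rabs with textbook roles in transport showed no call. Rab28, mutated in a human cone-rod dystrophy, read 12.2 ± 0.14 in Control, 12.2 ± 0.30 in STZ and 12.3 ± 0.15 in STZ + insulin retinas, and Rab8a, which acts in rhodopsin transport and at the cilium, read 7.38 ± 0.12, 7.29 ± 0.13 and 7.46 ± 0.18. Rab5a of early endosomes read 8.35 ± 0.09, 8.18 ± 0.35 and 8.37 ± 0.20, and Rab7a of late endosomes 9.96 ± 0.07, 9.92 ± 0.13 and 9.91 ± 0.13. Rab38, which carries pigment enzymes to melanosomes and is expressed in pigment epithelium, read 5.33 ± 0.15, 5.53 ± 0.12 and 5.26 ± 0.26. The pigment epithelium markers had a mean over the 4 of 13 genes detected of 7.58 in Control, 6.65 in STZ and 6.60 in STZ + insulin retinas, with no call, and ranged between 6.34 and 8.47 in Control, 5.77 and 7.91 in STZ and 5.27 and 7.82 in STZ + insulin arrays, and their part in the Rab38 signal was not tested. Of 15 textbook members of all families, none passed in any comparison by limma, with 1, 2 and 0 at an unadjusted p under 0.05 where 20.8%, 27.1% and 8.98% of all probes passed, and their differences between diabetic and control rats lay between -0.31 (Arf6) and 0.20 (Rab38).

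The 3 Rab effectors or regulators held no call. Rab3gap2, the noncatalytic subunit of the complex that acts on Rab3 and Rab18, had a difference of -0.23 (SE 0.11, adjusted p = 0.220) between diabetic and control rats and of 0.30 (SE 0.11, adjusted p = 0.0752) between insulin-treated and diabetic rats. Rab3ip, also called Rabin8, an exchange factor for Rab8, was the brightest of these probes at 9.51 ± 0.04, 9.46 ± 0.29 and 9.55 ± 0.12. Its spread was larger in the diabetic than in the other groups, a difference that was not tested.

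**Figure D2:**
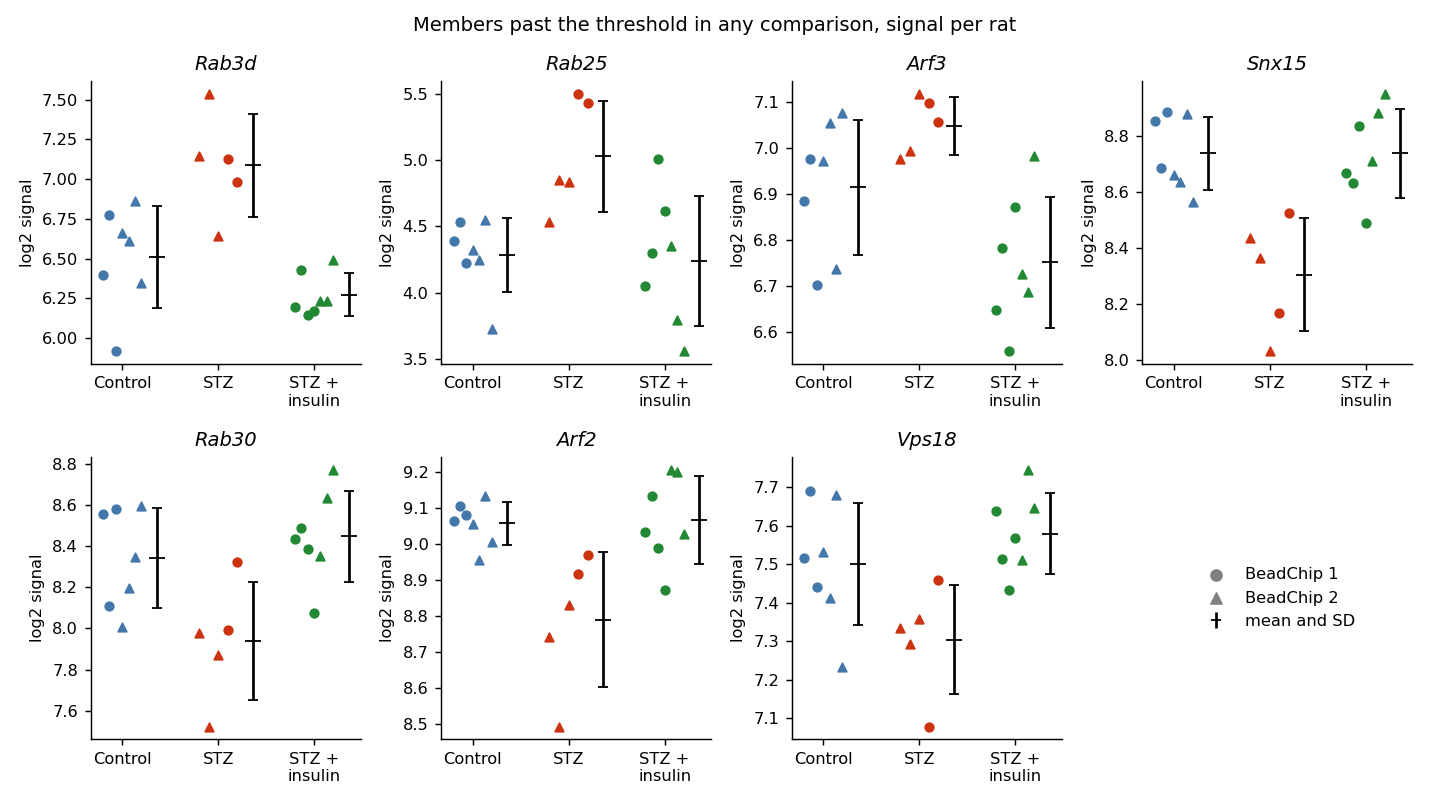
Log2 signal of the 7 members called in any comparison, 1 point per rat (circles BeadChip 1, triangles BeadChip 2), with the mean and SD of each group beside the points. Rab3d, Rab25 and Arf3 are highest in the STZ group and Snx15, Rab30, Arf2 and Vps18 lowest, and only Rab3d (STZ + insulin against STZ) and Snx15 (STZ against Control) have ranges that do not overlap.

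Of the 6 ARF GTPases, Arf2 rose and Arf3 fell with insulin. Arf2 and Arf3 are class I ARFs, which recruit COPI and clathrin adaptors to the Golgi, and Arf2 is present in rat and mouse but absent in humans. For Arf2, Control arrays read from 8.96 to 9.13 (median 9.06), STZ arrays 8.74, 8.49, 8.83, 8.92 and 8.97, and STZ + insulin arrays from 8.87 to 9.21 (median 9.03). STZ replicate 2 was lowest and STZ replicate 5 was just inside the Control range, and STZ replicates 4 and 5 were within that of the treated rats. Arf2 rose by 0.28 with insulin (SE 0.080, 1.21-fold, adjusted p = 0.0352), by 0.063 within BeadChip 1 and 0.46 within BeadChip 2, and its difference of -0.27 in diabetic rats did not pass (adjusted p = 0.0707). For Arf3, Control arrays read from 6.70 to 7.08 (median 6.97), STZ arrays 6.98, 6.99, 7.12, 7.10 and 7.06, and STZ + insulin arrays from 6.56 to 6.98 (median 6.73). The diabetic rats lay within 0.14 of each other at the upper end, and STZ + insulin replicate 7 was the only treated rat to reach their range. Arf3 fell by 0.30 with insulin (SE 0.082, 1.23-fold, adjusted p = 0.0280), with -0.36 and -0.23 within the BeadChips, and its difference between diabetic and control rats was 0.13 (adjusted p = 0.363).

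The sequences before the starts of Arf2 and Arf3 are set side by side since these close relatives moved apart. That of Arf2 (GRCr8 chr10:89367593-89367842, plus strand) holds 3 GC boxes in capitals, and that of Arf3 (chr7:131790980-131791229, minus strand) has none of these letters.
Arf2: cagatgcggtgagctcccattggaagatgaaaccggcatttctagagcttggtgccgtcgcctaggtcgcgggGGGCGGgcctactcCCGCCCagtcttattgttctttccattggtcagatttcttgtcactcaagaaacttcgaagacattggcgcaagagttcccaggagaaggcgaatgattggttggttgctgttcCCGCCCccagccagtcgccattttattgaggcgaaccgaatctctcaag
Arf3: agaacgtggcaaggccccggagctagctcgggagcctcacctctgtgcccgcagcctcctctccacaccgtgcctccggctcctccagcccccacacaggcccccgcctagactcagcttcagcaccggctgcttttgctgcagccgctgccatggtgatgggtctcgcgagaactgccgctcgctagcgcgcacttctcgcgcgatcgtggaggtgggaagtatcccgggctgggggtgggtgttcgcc

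The other ARFs and the COPI coat showed no call. Arf1, the principal Golgi ARF, had the smallest spread of all members (pooled SD 0.057) and read 9.63 ± 0.05, 9.54 ± 0.07 and 9.60 ± 0.05 in Control, STZ and STZ + insulin retinas. Arf4, which binds the sorting signal of rhodopsin, read 10.7 ± 0.12, 10.7 ± 0.19 and 10.6 ± 0.09, and Arf5 read 11.5 ± 0.09, 11.7 ± 0.15 and 11.6 ± 0.20. Arf6, the ARF of the plasma membrane, differed by -0.31 between diabetic and control rats (adjusted p = 0.133) and by 0.25 between insulin-treated and diabetic rats (adjusted p = 0.177). Of the 4 COPI subunits Copb1 was the brightest probe at 9.38 ± 0.09, 9.27 ± 0.21 and 9.33 ± 0.24, and none had an unadjusted p under 0.05 in any comparison. The smallest p among them belonged to Copg2 in diabetic against control rats (-0.22, SE 0.22, adjusted p = 0.586), whose STZ replicate 2 read 5.15 beside 6.11 to 6.61 in the other 4. Without that array the difference was 0.022. Copb1 had the smallest p with insulin (0.065, adjusted p = 0.737).

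The Vps proteins lay mostly below 0 in diabetic rats and above 0 with insulin. Of 23, 19 were below 0 in diabetic against control rats with a median of -0.12, and 19 were above 0 in insulin-treated against diabetic rats with a median of 0.10, beside -0.067 and 0.060 over all probes. Of all probes, 64.7% lay below 0 in the former comparison and 61.3% above 0 in the latter. After quantile normalization, which moved the median of all probes to -0.0091 and 0.024, 15 of 23 were below 0 and 17 above. Within BeadChip 1 only 11 of 23 were above 0 with insulin. None of the 23 passed between diabetic and control rats by limma, where 7 had an unadjusted p under 0.05 (30.4%, against 20.8% of all probes) and the methods' t-test called no member after adjustment, and Vps18 alone passed with insulin.

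Vps18 is a core subunit of HOPS and CORVET, the tethers that fuse late and early endosomes. Control arrays read from 7.23 to 7.69 (median 7.52), STZ arrays 7.33, 7.29, 7.36, 7.08 and 7.46, and STZ + insulin arrays from 7.43 to 7.75 (median 7.57). STZ replicate 4 was lowest, and STZ replicate 5 was the only diabetic rat within the range of the treated rats. Vps18 rose by 0.28 with insulin (SE 0.085, 1.21-fold, adjusted p = 0.0454), by 0.27 and 0.31 within the BeadChips. The call was lost with the BeadChip as a block (0.28, adjusted p = 0.0520), and it passed in 7 of 19 fits with 1 array left out. Its difference in diabetic rats was -0.20 (adjusted p = 0.196). The 4 core subunits of these tethers on the array, Vps11, Vps16, Vps18 and Vps33a, all lay below 0 in diabetic against control rats (-0.21 to -0.061, no call) and above 0 with insulin (0.034 to 0.30).

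Other endosomal complexes held no call. The retromer core of Vps26a, Vps26b, Vps29 and Vps35, which returns cargo from endosomes to the Golgi and the plasma membrane, differed by -0.15 to -0.021 in diabetic rats and by -0.024 to 0.071 with insulin, with no unadjusted p under 0.05. Vps35 read 10.6 ± 0.07 in Control, 10.4 ± 0.30 in STZ and 10.5 ± 0.27 in STZ + insulin retinas, and Vps26a 7.58 ± 0.10, 7.56 ± 0.07 and 7.60 ± 0.16. The 7 ESCRT and Vps4 proteins, which bud vesicles into endosomes, ranged from -0.31 to 0.081 in diabetic rats and from -0.055 to 0.30 with insulin. Vps45, a partner of endosomal syntaxins, had the smallest p of the family in diabetic rats, with values of 8.15, 8.12, 7.91, 8.03 and 8.34 beside 8.24 to 8.53 in Control, where STZ replicate 5 alone was inside the Control range. That difference of -0.29 (SE 0.087, 1.22-fold) did not pass (adjusted p = 0.0718).

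Snx15 was the sorting nexin that passed, in both comparisons. It is an endosomal PX-domain protein that also carries a MIT domain, a fold shared with Vps4. Control arrays read from 8.56 to 8.88 (median 8.69), STZ arrays 8.43, 8.36, 8.03, 8.17 and 8.52, and STZ + insulin arrays from 8.49 to 8.95 (median 8.71). Every diabetic rat lay below every control rat, and STZ replicate 5 overlapped the treated rats by a single array, STZ + insulin replicate 4. Ranges that do not overlap were found for 2.98% of all probes in diabetic against control rats. Snx15 fell by 0.43 in diabetic rats (SE 0.097, 1.35-fold, adjusted p = 0.0289) and rose by 0.43 with insulin (SE 0.097, 1.35-fold, adjusted p = 0.0122). The BeadChips gave -0.46 and -0.41 for the former and 0.31 and 0.57 for the latter. The differences were as large with the lens covariate, at -0.44 (adjusted p = 0.0549) and 0.44 (adjusted p = 0.193). The fall passed in 16 of 19 fits with 1 array left out, the exceptions being Control replicate 1, Control replicate 3 and STZ replicate 4, and the rise in 19 of 19.

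The sequence before the start of Snx15 (GRCr8 chr1:212855451-212855700, minus strand) is shown as the counterpart of Rab3d, for a member that moved the other way. It holds no GC box in either orientation. The number of GC boxes did not follow the direction of change among the called members. Of those that rose with insulin like Snx15, Arf2 holds 3, Vps18 1 and Rab30 0. Rab25 and Arf3, which fell like Rab3d, hold 0.
Snx15: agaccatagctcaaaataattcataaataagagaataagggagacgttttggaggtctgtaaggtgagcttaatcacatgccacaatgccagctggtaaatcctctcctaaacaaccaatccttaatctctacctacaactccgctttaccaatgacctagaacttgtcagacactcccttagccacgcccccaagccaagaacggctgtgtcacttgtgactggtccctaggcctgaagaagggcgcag

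The remaining 15 sorting nexins had no call. Snx2, the brightest probe of the family, read 11.1 ± 0.15, 10.9 ± 0.11 and 11.1 ± 0.23 in Control, STZ and STZ + insulin retinas, and Snx1, its partner in the retromer coat, read 8.85 ± 0.12, 8.86 ± 0.17 and 8.71 ± 0.12. Snx13, which links endoplasmic reticulum and endosomes and was picked out for its size, differed by -0.51 between diabetic and control rats (SE 0.16, adjusted p = 0.0805). The 4 retromer nexins Snx1, Snx2, Snx5 and Snx6 differed by -0.18 to 0.0081 in diabetic rats. Of all 16 nexins, 13 were below 0 in diabetic rats (median -0.13) and 12 above 0 with insulin (median 0.097), and after quantile normalization 11 and 9. Before that normalization 64.7% of all probes lay below 0 in diabetic rats and 61.3% above 0 with insulin. Within BeadChip 1 the direction with insulin turned, with 6 of 16 above 0 and a median of -0.080, and within BeadChip 2 13 of 16 were above 0 with a median of 0.25.

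Insulin-treated and control retinas were compared to ask which members still differed after treatment. None of the 86 passed by limma, 2 had an unadjusted p under 0.05 (2.33%, against 8.98% of all probes), the methods' t-test gave 0 after adjustment and 4 before, and of all 10718 probes 0.00933%, a single probe, was called. The 2 members were Vps36, an ESCRT-II subunit (-0.13, SE 0.055, adjusted p = 0.487), and Arf3 (-0.16, SE 0.075, adjusted p = 0.521). The other families' smallest p belonged to Rab9a, a late endosome Rab (-0.19, adjusted p = 0.585), Snx1 (-0.14, adjusted p = 0.639), Copg2 (-0.26, adjusted p = 0.804) and Rab11fip2, a Rab11 effector (-0.24, adjusted p = 0.886). For the members called in diabetic rats the 95% intervals of this difference were -0.19 to 0.18 for Snx15 and -0.52 to 0.046 for Rab3d. The median difference was -0.0097 over the members and -0.0046 over all probes.

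**Figure D3:**
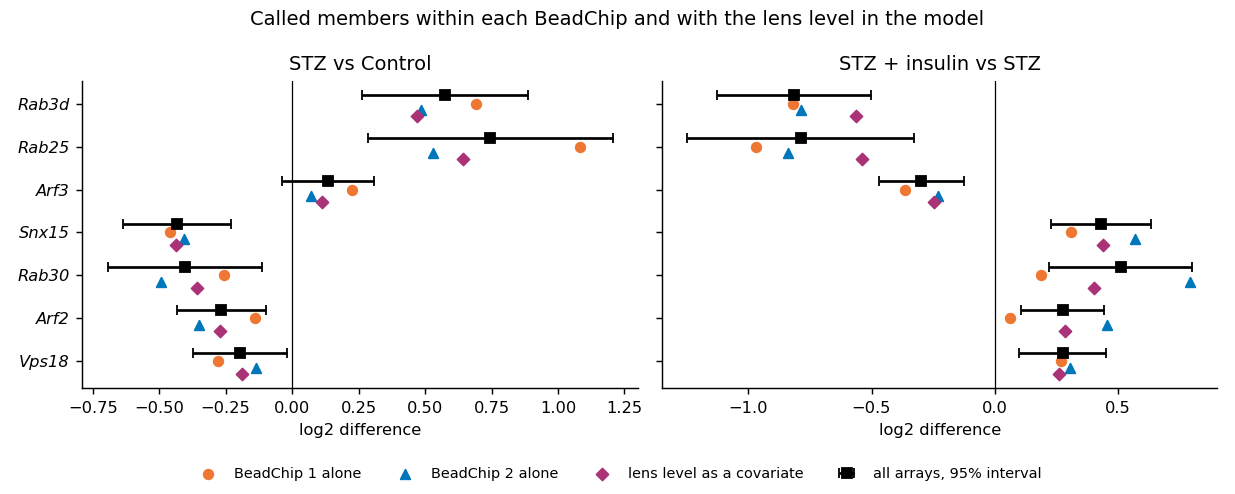
Log2 differences of the 7 called members for STZ against Control and STZ + insulin against STZ: squares with bars give the fit on all arrays with its 95% interval, circles and triangles each BeadChip alone, and diamonds the fit with the mean lens signal as a covariate. Every estimate keeps its side of 0, and the BeadChips are apart for Rab30 (0.19 and 0.79) and Arf2 (0.063 and 0.46) with insulin and for Rab25 (1.08 and 0.53) in STZ against Control.

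Among the trafficking genes outside these families, on lists of Rab regulators, ARF regulators, COPII, clathrin adaptors, SNAREs, ESCRT and tethers, 165 genes were tested. Arfgap1, which switches off ARF at the Golgi, fell by 0.32 in diabetic rats (SE 0.084, adjusted p = 0.0444) and was the only member of these lists called there (0.606% of 165). It was lost without any Control array, STZ replicate 2 or 4 or STZ + insulin replicate 1, 2, 5 or 7. With insulin 14 of 165 passed (8.48%, against 10.4% of all probes), 10 higher and 4 lower. Arfgap1 rose by 0.37, Rims2, a Rab3 effector of the presynaptic active zone, by 0.48, Rabep2, a Rab effector of endosomes, by 0.51 and Cyth2, an ARF exchange factor, by 0.47. The clathrin adaptor subunit Ap1g1 rose by 0.42, the tethers Exoc3 and Trappc6b by 0.33 and 0.27 and the SNARE Snap47 by 0.26. Vamp5, a SNARE first described in muscle, fell by 1.46 (SE 0.31, adjusted p = 0.0092) and Kdelr3, a receptor that retrieves proteins to the endoplasmic reticulum, by 1.15 (SE 0.31, adjusted p = 0.0248). The lowest treated rat had Vamp5 at 3.32, the log2 of the value of 10 to which low signals were set. The size of its fall depends on that setting. Vamp5 read from 5.13 to 6.29 on STZ arrays, and the lowest Control array read 3.53. Which groups carried it past the detection rule was not examined. If only the diabetic group did, where it was highest, the fall was selected for. The remaining 4 called genes were Tmed3 and Vamp8, which fell, and Sec13 and Gosr1, which rose. With the BeadChip as a block Sec13 (adjusted p = 0.0548) and Gosr1 (adjusted p = 0.0587) no longer passed, and Gosr1 differed by 0.044 within BeadChip 1 and 0.87 within BeadChip 2. The list of exocyst, COG and other tethers had the medians farthest from 0, at -0.17 in diabetic rats and 0.23 with insulin over 18 genes, of which 7 were higher with insulin at an unadjusted p under 0.05, where 27.1% of all probes passed in either direction. With the lens covariate none of the 165 passed with insulin by limma, and the call count was 6 without STZ replicate 2 and 9 without STZ + insulin replicate 5.

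The members as a whole were also summarised on each array, beside all probes. The median deviation of the 86 members from their Control means ranged from -0.046 to 0.056 on Control, from -0.21 to 0.015 on STZ and from -0.11 to 0.090 on STZ + insulin arrays, and the median of all detected probes from -0.021 to 0.028, from -0.13 to -0.013 and from -0.063 to 0.073. STZ replicate 2 was the lowest array by either measure, and 3 of the 5 STZ arrays (replicates 1, 3 and 5) lay inside the Control range by the members' median and replicates 3 and 5 by that of all probes. Upstream windows matched 73 members by gene identifier, Rab30 with 2 windows. A GC box on either strand was found in 64.9% of these 74 windows and in 30.5% of all 33469 windows of the same length, which include noncoding genes. The E-box CACGTG was found in 14.9% against 5.59%, and the cAMP response element TGACGTCA in 5.41% against 1.59%, and these counts describe letters, not binding.

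**Figure D4:**
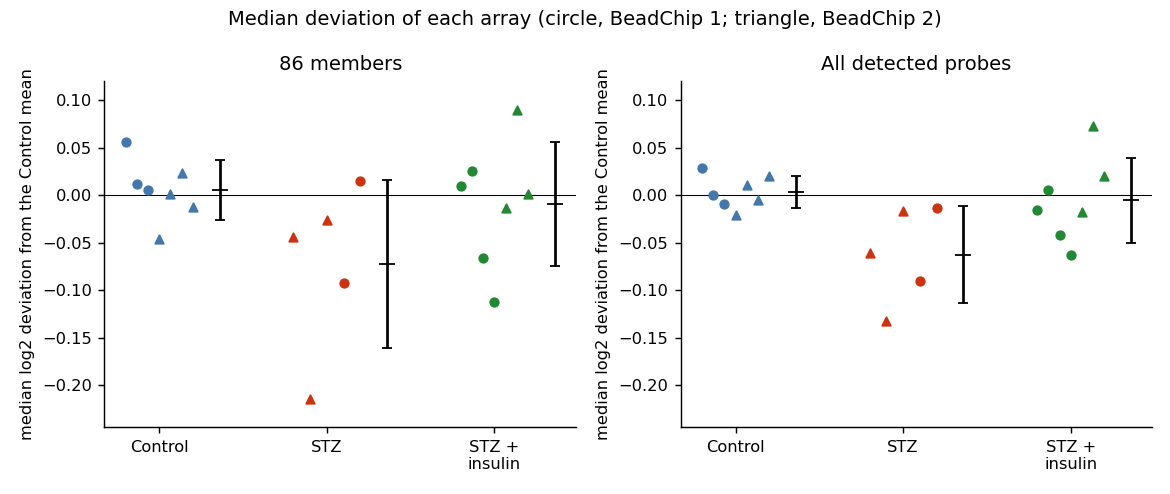
Median log2 deviation from the Control mean on each array, over the 86 members (left) and over all detected probes (right), 1 point per rat (circles BeadChip 1, triangles BeadChip 2) with the mean and SD of each group beside them. The lowest array in each panel is STZ replicate 2 (-0.21 and -0.13), and the groups overlap.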

How the data were processed

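Retinal RNA of 19 rats, 7 Control, 5 STZ and 7 STZ + insulin, was hybridised to 1 Illumina RatRef-12 array each. The authors deposited intensity values in linear units, both non-normalized and after average normalization in GenomeStudio (version 1.0.6 per the submitters' processing notes), with a detection p-value per probe and array from the same deposited tables. No genome build is given in the sources used here. The series' value table repeats the average-normalized intensities for all 22517 probes and added nothing. Groups were taken from the sample labels. Nothing states that RNA of several animals was pooled, and the number of arrays limits the precision.

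Average-normalized intensities under 10 were set to 10 and taken to log2. The 10718 probes for which at least 1 group had a detection p below 0.05 throughout were fitted in 1 model of the 3 groups with limma 3.58.1 in R 4.3.3 (lmFit, eBayes, no covariate), and p-values were adjusted by the Benjamini-Hochberg method over these probes. A probe was called at an adjusted p under 0.05. The fit was tested on simulated data first. The genes named were every called member, 15 members with textbook roles and, for each role and comparison, the member with the smallest p; of the other trafficking lists, the called genes with the smallest p. Rab26, Rab39a, Snx13, Tmed3, Vamp8, Sec13, Gosr1 and the smaller groups of Rabs and Vps proteins were picked after values were seen, and a few further members are given beside relatives. The members and all lists were chosen with earlier results of these data known. Alternatives were other floors (1 and 50), detection filters, quantile normalization, neqc and median centring of the non-normalized intensities, an intensity trend, averaging over a gene's probes, the methods' t-test, only the 2 groups compared, the replicate number, the BeadChip or the mean lens signal in the model, leaving out each array, and, chosen after seeing the data, each BeadChip alone. Sequences are the 250 bases before gene starts from RefSeq (GRCr8), matched by gene identifier.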

Additional observations from a re-analysis of the deposited data

Results flagged for a closer look

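Of 96 groups of members tested for a sample far from the others, 4 held one, and chance alone gives about 1 in 20. Copb1, a COPI subunit, read 8.89 on the log2 scale in STZ replicate 2, beside 9.33 in the nearest other diabetic rat. Rab25 read 3.72 in Control replicate 7, beside 4.22 in the nearest other control rat, on a probe near background. Rab3gap2 read 8.14 in Control replicate 4, beside 8.50 in the nearest. Vps45 read 8.02 in STZ + insulin replicate 4, beside 8.30 in the nearest. None of these 4 belongs to a call except Rab25. Its fall with insulin does not use the control rats for its size and passed without Control replicate 7. Besides Rab25, 2 of these genes newly passed by limma once their own flagged array was left out. Rab3gap2 passed with insulin without Control replicate 4 (adjusted p = 0.0486). Without STZ + insulin replicate 4, Vps45 passed in diabetic against control rats (adjusted p = 0.0411) and with insulin. Vps37a and Rab3gap2 also passed with insulin without that array. Without STZ replicate 2, Arf2, Rab25, Rab30 and Vps18 no longer passed with insulin. Rab3d no longer passed in diabetic against control rats without it.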

How the results depend on the processing

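The count of members called between diabetic and control rats, 2 as reported, was 4 with quantile normalization or neqc, which called 325 and 316 of all 10718 probes. It was 1 with median-centred signals or the replicate block. It was 0 without a detection filter, with only the 2 groups, with the lens covariate and within BeadChip 1 or BeadChip 2 alone. Of all probes, 122 were called with the lens covariate, 9 within BeadChip 1 and 0 within BeadChip 2. With the methods' t-test the count of members was 0 after Benjamini-Hochberg adjustment, and 16 members had an unadjusted p under 0.05. The paper's methods state a fold-change cutoff with that test and no adjustment. The count ranged from 0 to 4 when 1 array was left out. With insulin against STZ the 7 members became 3 without a detection filter, with only the 2 groups or with the replicate block. They became 2 with the methods' t-test after adjustment, where 15 had an unadjusted p under 0.05. The count was 1 within BeadChip 2 and 0 within BeadChip 1 or with the lens covariate, and ranged from 2 to 12 with 1 array left out. Of all probes, 355 were called within BeadChip 2, 8 within BeadChip 1 and 2 with the lens covariate. Nothing states whether same-numbered samples were paired, and they were not treated as pairs. Their deviations from the group means had correlations from -0.244 to 0.273 over 17 pairs. Differently numbered samples were not correlated, so these values do not decide whether animals were paired. For the other trafficking genes, the 1 call in diabetic rats became 2 with a floor of 50 and 0 without a detection filter, with only the 2 groups, with the replicate block and within either BeadChip (0 to 3 with 1 array left out). The 14 with insulin became 9 without a filter, 4 with the adjusted t-test and 8 with only the 2 groups or the replicate block. They became 6 within BeadChip 2 and 0 within BeadChip 1 or with the lens covariate (6 to 20 with 1 array left out). The members' median in diabetic rats moved from -0.087 to -0.022 with quantile normalization and -0.026 with neqc, that with insulin against STZ from 0.066 to -0.0029 within BeadChip 1, and that of insulin-treated against control rats from -0.0097 to -0.066 within BeadChip 1. Copg2 in diabetic rats reversed to 0.14 within BeadChip 1 and ranged from -0.34 to 0.022 with 1 array left out, and Copb1 with insulin reversed to -0.14 within BeadChip 1 and -0.0059 with the lens covariate and ranged from -0.029 to 0.14. For called members and Rab26 in both comparisons with diabetic rats, and for each family's smallest p, no other difference changed its sign. Outside this set some did: Rab11b with insulin was -0.10 over all arrays and 0.036 within BeadChip 1. The causes were not tested, except that a BeadChip alone or a fit on 2 groups has fewer arrays and the fit without a filter adjusts over more probes. The lens covariate itself differed between insulin-treated and diabetic rats, which widens the errors of that comparison.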
